A study of Mus musculus with 10 samples.

Results

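Interferon-stimulated genes were followed across the regions of the normal mouse heart. The set held 9 genes, Ifit1, Ifit2, Ifit3, Isg15, Irf7, Oasl2, Rsad2, Usp18 and Ifi44, of 22911 genes named on the array. They were found by matching the RefSeq accession of each array probe to the mouse gene symbols, which gave 11 probes, 1 per gene except for Irf7 and Rsad2 with 2 each. All 11 probes were well above background on all 10 arrays, so no member was lost to the filter on dim probes. The tissue was heart wall of C57BL/6N mice, divided into the right ventricle (RV, 4 arrays), the left ventricle (LV, 3 arrays) and the ventricular septum (3 arrays), with cold PBS run through both ventricles before the hearts were frozen. The labels name no treatment, genotype or age and separate the groups by region alone. The regions were not spread evenly over the slides, as given below. Arrays carry a number in their title, 1 to 4 in RV and 1 to 3 in LV and septum, and the series states that different individuals were used for each experiment. Whether arrays with the same number came from the same heart is not stated, so a p-value measures the spread between these samples.

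Type I interferons bind a receptor made of Ifnar1 and Ifnar2, which activates the kinases Jak1 and Tyk2. These phosphorylate STAT proteins, which join Irf9 in a complex that enters the nucleus and binds the interferon-stimulated response element (ISRE) in the promoters of its targets. The target genes are mostly antiviral, and many cells keep them at a low level without infection. In heart muscle they are known for their part in defence against cardiotropic viruses and in the response to injury.

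The ISRE can be looked for in the promoters of the 9 genes. Its core, searched as GAAA, any 2 bases and GAAA again, was sought on both strands in windows of RefSeq promoters (build GRCm38.p6) that run from 250 bases before to 50 bases after the start of transcription. Promoters were at hand for 8 of the 9 genes, and the core was found in 4 of them, Ifit1, Ifit3, Isg15 and Rsad2, against 3.44% of all 32851 promoters. The sequence was not found in the windows of Ifi44, Ifit2, Irf7 and Oasl2. Ifit1 and Ifit3 held 2 cores each, Rsad2 held 1 and Isg15 held 3 that overlap each other. The interferon-gamma element TTCNNNGAA, which reads alike on both strands and shares no position with those cores, lay in 1 of the 8 genes, Ifit2, and in 8.3% of all promoters. The stretch from 160 to 41 bases before the start is shown for the 4 genes with a core, 5' to 3' on the strand of the gene, because it holds every core found. Capitals mark the core, which reads as TTTC, 2 bases and TTTC where it lies on the opposite strand.
Isg15 (chr4:156200859-156200978, minus strand): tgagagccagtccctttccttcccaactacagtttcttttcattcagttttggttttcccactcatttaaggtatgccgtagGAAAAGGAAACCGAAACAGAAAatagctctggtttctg
Rsad2 (chr12:26456493-26456612, minus strand): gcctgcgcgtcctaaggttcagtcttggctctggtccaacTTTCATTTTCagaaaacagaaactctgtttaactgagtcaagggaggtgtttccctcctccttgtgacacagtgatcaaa
Ifit3 (chr19:34583369-34583488, plus strand): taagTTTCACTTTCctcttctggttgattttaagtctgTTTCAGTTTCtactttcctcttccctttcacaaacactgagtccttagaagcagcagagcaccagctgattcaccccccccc
Ifit1 (chr19:34640729-34640848, plus strand): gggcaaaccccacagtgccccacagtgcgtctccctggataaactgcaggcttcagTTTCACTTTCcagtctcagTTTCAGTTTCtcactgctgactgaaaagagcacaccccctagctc
The run of overlapping cores in Isg15 lay between 78 and 57 bases before the start, and the single core of Rsad2 between 120 and 111 bases before it.

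A level here is the log2 signal of a probe minus the 75th percentile of its array, and a difference is a log2 difference of group means, with their standard error (SE) where one is given. Levels of different probes are not comparable with each other, so each gene was compared only with itself across arrays. The arrays lay on 2 slides, with numbers 1 and 2 of each region on slide 1 and RV arrays 3 and 4, LV array 3 and septum array 3 on slide 2. Between 53.7% and 64.0% of the spots were well above background, and no spot was saturated. Cardiomyocyte markers were well above background on every array, for all 7 markers listed. The number of arrays limits the precision of every value below.

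**Figure D1:**
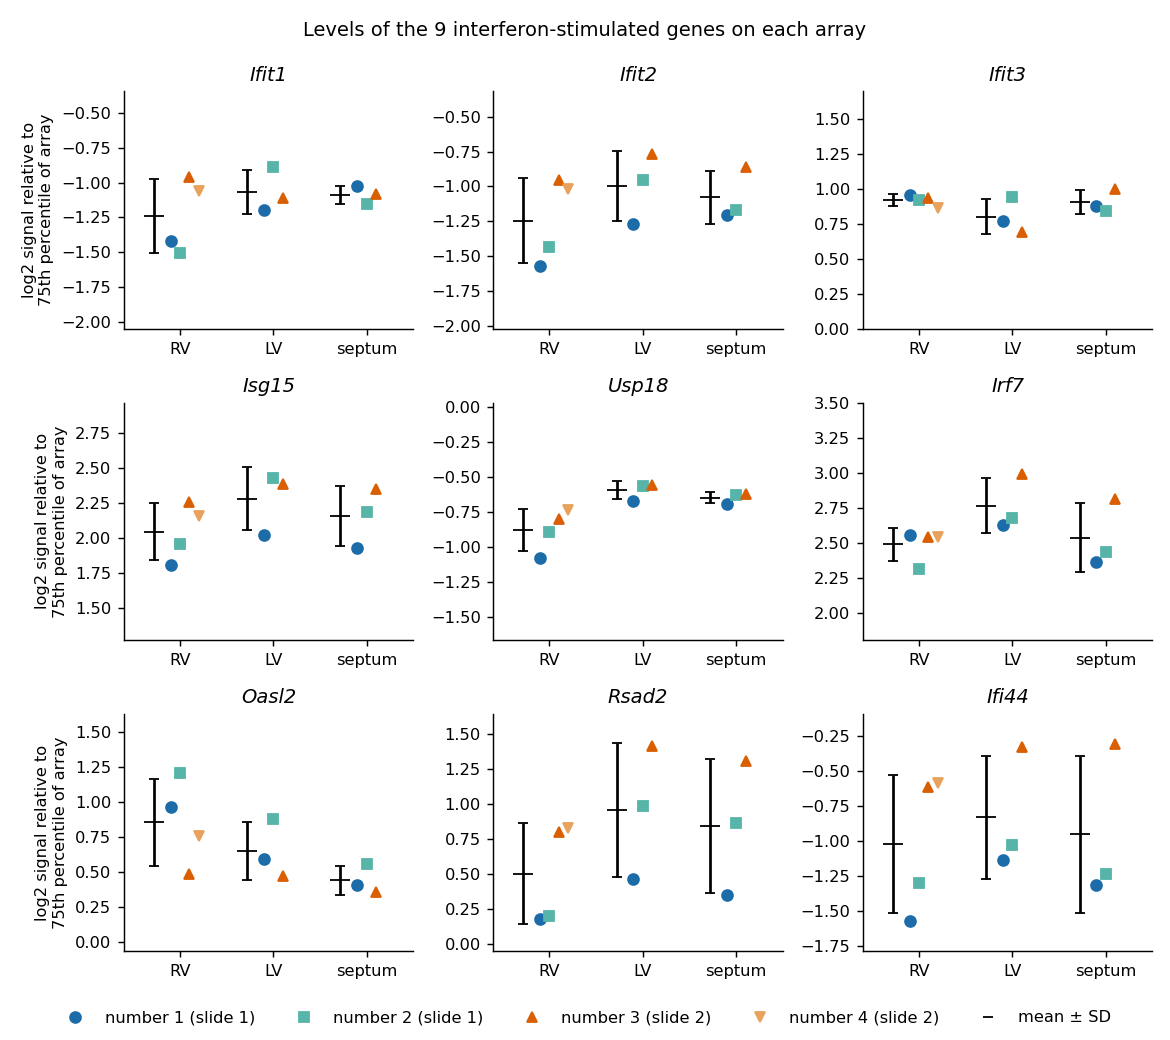
Level of each of the 9 genes on each array (log2 signal relative to the 75th percentile of the array), by region, with the mean and SD of a region in black and symbols by array number. Every panel spans the same range. Rsad2 and Ifi44 were higher on the slide 2 arrays of each region than on slide 1, and Usp18 lay lower on all 4 RV arrays than on any LV or septum array.

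The first question was whether the 3 regions differed. In the limma fit of one mean per region none of the 9 genes differed between RV and LV, between RV and septum, or between septum and LV at an adjusted p below 0.05. Of all 30234 probes tested, 3.86% were called between RV and LV, 2.08% between RV and septum and 0% between septum and LV. The joint test of the 3 regions called 2.78% of all probes and none of the 9 genes. At an unadjusted p below 0.05, 1 of the 9 genes stood out between RV and LV (Usp18), 2 between RV and septum (Usp18 and Oasl2) and none between septum and LV. The median difference over the 9 genes was -0.23 between RV and LV, against -0.04 over all probes tested.

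Arrays with the same number deviated together over the whole array, so the same comparison was made with the number, or the slide, as a block, which takes out the shared part. With the slide as a block, 5 of the 9 genes were lower in RV than in LV (Ifit2, Irf7, Rsad2, Usp18 and Ifi44), against 10.4% of all probes lower and 17.6% called in either direction. With the number as a block the count was 4 (Ifit2, Rsad2, Usp18 and Ifi44), against 8.69% lower and 14.9% called in either direction. In that fit RV array 4 has no partner and adds nothing to the estimate. No member was called higher in RV than in LV in either fit. These counts rested on single arrays and on the filter, in refits chosen after seeing the data. Leaving out LV array 2 or LV array 3 left no call with either block, and leaving out LV array 1 or RV array 2 left none with the number as a block. Without any other single array the counts ran from 1 to 4, with RV array 4 giving the 1 (slide as a block). They include Oasl2, which without RV array 3 was higher in RV by 0.37 (adjusted p = 0.027, number as a block). Without the filter on dim probes neither block gave a call. Calls over all probes fell in the refits without a member call too, from 5331 (slide) and 4512 (number) of 30234. They fell to 3203 and 764 without LV array 2 and to 1804 and 1005 without LV array 3. With the number as a block they fell to 295 without LV array 1 and to 621 without RV array 2. With no filter 1233 (slide) and 8 (number) of 56605 probes were called, so the loss was not particular to the 9 genes.

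**Figure D2:**
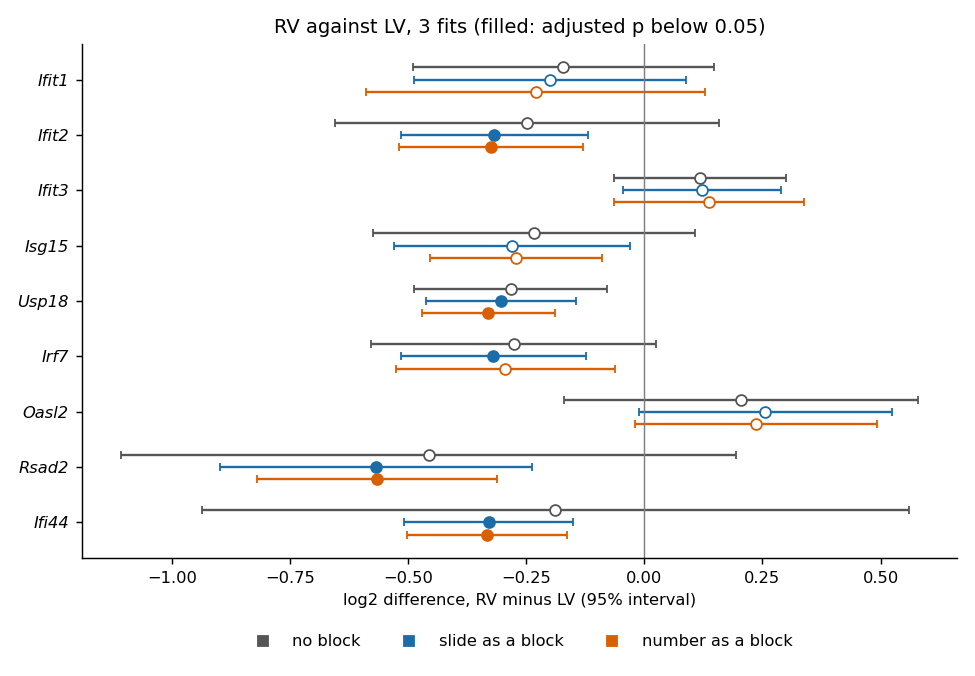
Log2 difference between RV and LV for each of the 9 genes with its 95% interval, in the fit without a block (grey), with the slide (blue) and with the number (orange) as a block; filled points have an adjusted p below 0.05. No gene is called without a block, and the intervals of Ifi44 and Rsad2 narrow most when either block is added.

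Irf7 is the transcription factor that amplifies interferon production. Its brighter probe stood at 2.56, 2.32, 2.54 and 2.54 on RV arrays 1 to 4, at 2.63, 2.68 and 2.99 on LV arrays 1 to 3 and at 2.36, 2.44 and 2.82 on septum arrays 1 to 3. All RV arrays lay below all LV arrays, while RV and septum overlapped. RV was lower than LV by -0.32 (SE 0.09, adjusted p = 0.036) with the slide as a block, and the difference was -0.28 (SE 0.13, adjusted p = 0.30) without one. With the number as a block the adjusted p was 0.089. The second, dimmer probe of Irf7 gave -0.28 (SE 0.12, adjusted p = 0.14) with the slide as a block, in the same direction and short of the threshold.

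Ifit1, Ifit2 and Ifit3 encode tetratricopeptide proteins that bind viral RNA or take part in complexes that do. Ifit2 stood at -1.57, -1.44, -0.95 and -1.02 on RV arrays 1 to 4, at -1.27, -0.95 and -0.77 on LV arrays 1 to 3 and at -1.20, -1.17 and -0.86 on septum arrays 1 to 3. In each number the RV array was the lowest of the 3, although the regions as a whole overlapped. RV minus LV was -0.25 (SE 0.18, adjusted p = 0.51) without a block and -0.32 (SE 0.09, adjusted p = 0.039) with the slide as a block.

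For Ifit1 the RV mean was also the lowest of the 3 regions, but RV was not the lowest in every number. RV arrays had a mean of -1.24 ± 0.27 (SD, n = 4), the LV arrays one of -1.07 ± 0.16 (SD, n = 3) and the septum arrays one of -1.09 ± 0.06 (SD, n = 3). RV minus LV was -0.22 and -0.62 in numbers 1 and 2, on slide 1, and 0.15 in number 3. No fit called Ifit1 between regions, and its 95% interval for RV against LV ran from -0.49 to 0.15.

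Ifit3 was the steadiest of the 9 genes, with an SD over all 10 arrays of 0.09. It stood at 0.96, 0.92, 0.94 and 0.86 on RV arrays 1 to 4, at 0.77, 0.94 and 0.70 on LV arrays 1 to 3 and at 0.88, 0.84 and 1.0 on septum arrays 1 to 3. The groups overlapped in every comparison. The 95% interval of the difference between RV and LV was -0.06 to 0.30, and that between RV and septum was -0.17 to 0.19. Ifit3 has a near-identical neighbour, Ifit3b, and a probe of one may also read the other.

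Isg15 is a ubiquitin-like protein that is attached to other proteins, and Usp18 removes it and also dampens signalling at the interferon receptor. Usp18 stood at -1.08, -0.90, -0.80 and -0.74 on RV arrays 1 to 4, at -0.67, -0.57 and -0.56 on LV arrays 1 to 3 and at -0.70, -0.63 and -0.63 on septum arrays 1 to 3. The 4 RV arrays lay below all LV and all septum arrays, while LV and septum overlapped. Between RV and LV, 11% of all probes had the RV arrays wholly below and between RV and septum 7.83%, and 2 members (Usp18 and Irf7) and 1 member (Usp18) did so. For Irf7 this held for its brighter probe, while RV and LV overlapped by its dimmer one. RV was lower than LV by -0.30 (SE 0.07, adjusted p = 0.021) with the slide as a block and by -0.33 (SE 0.06, adjusted p = 0.021) with the number as a block, against -0.28 (SE 0.09, adjusted p = 0.12) without one. Between RV and septum with the number as a block, Usp18 was the one gene called by its brightest probe, at -0.28 (SE 0.06, adjusted p = 0.045), where 3.77% of all probes were called lower and 7.12% called in all.

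Isg15 stood at 1.81, 1.95, 2.26 and 2.16 on RV arrays 1 to 4, at 2.02, 2.43 and 2.39 on LV arrays 1 to 3 and at 1.93, 2.18 and 2.35 on septum arrays 1 to 3. In each number RV was lowest and LV highest, but no difference between regions passed the test in these fits. RV minus LV was -0.23 (SE 0.15, adjusted p = 0.45) without a block and -0.28 (SE 0.11, adjusted p = 0.11) with the slide as a block. With the number as a block it was -0.27 (SE 0.08, adjusted p = 0.060), and there it passed the threshold with median scaling (adjusted p = 0.038), with normexp (adjusted p = 0.030) and with the filter on all 10 arrays (adjusted p = 0.049). With the slide as a block it passed with median scaling (adjusted p = 0.045).

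Rsad2 encodes viperin, an enzyme that makes a nucleotide which stops viral RNA synthesis. Its brighter probe stood at 0.18, 0.20, 0.80 and 0.83 on RV arrays 1 to 4, at 0.47, 0.99 and 1.42 on LV arrays 1 to 3 and at 0.35, 0.87 and 1.31 on septum arrays 1 to 3. Within each number the order was RV, septum, LV from low to high. RV was lower than LV by -0.57 (SE 0.14, adjusted p = 0.031) with the slide as a block, the widest such difference of the 9 genes, and the difference was -0.46 (SE 0.29, adjusted p = 0.44) without one. The dimmer probe, at -3.74 to -1.99 over the arrays, gave -0.59 (SE 0.06, adjusted p = 0.007) with the number as a block and -0.52 (SE 0.20, adjusted p = 0.11) with the slide as a block. Against septum, with the number as a block, the dimmer probe was also lower in RV, by -0.37 (SE 0.06, adjusted p = 0.027), while the brighter one gave -0.45 (SE 0.10, adjusted p = 0.057).

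Ifi44 is an interferon-induced protein of the cytoplasm. It stood at -1.57, -1.30, -0.62 and -0.58 on RV arrays 1 to 4, at -1.14, -1.03 and -0.32 on LV arrays 1 to 3 and at -1.31, -1.23 and -0.31 on septum arrays 1 to 3. The slide 2 arrays were all above the slide 1 arrays, and within each slide every RV array was below every LV array. RV minus LV was -0.19 (SE 0.33, adjusted p = 0.81) without a block and -0.33 (SE 0.08, adjusted p = 0.024) with the slide as a block.

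Oasl2, a relative of the enzymes that sense double-stranded RNA, ran the other way. It stood at 0.96, 1.21, 0.48 and 0.76 on RV arrays 1 to 4, at 0.59, 0.88 and 0.47 on LV arrays 1 to 3 and at 0.41, 0.55 and 0.35 on septum arrays 1 to 3. RV was the highest of the 3 regions and septum the lowest in each number, with RV and LV nearly level in number 3. RV was higher than septum by 0.47 (SE 0.12, adjusted p = 0.044) with the slide as a block, where 4.03% of all probes were called higher and 8.74% called in all. The difference was 0.42 (SE 0.17, adjusted p = 0.30) without a block and 0.45 (SE 0.11, adjusted p = 0.059) with the number as a block.

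The order of the regions within same-numbered arrays sums up these values. RV was below LV in all 3 numbers for 6 of the 9 genes (Ifit2, Isg15, Irf7, Rsad2, Usp18 and Ifi44), against 30.4% of all probes. Counts here are by the brightest probe of a gene. The dimmer Irf7 probe departed from this order in number 1, with RV (-1.87) and septum (-1.78) above LV (-1.96). RV was below septum in all 3 numbers for 5 (Ifit2, Isg15, Rsad2, Usp18 and Ifi44), against 26.8%. Septum was below LV in all 3 for 5 (Isg15, Irf7, Oasl2, Rsad2 and Usp18), against 22.8%, yet the largest of these septum differences, that of Irf7, was -0.23 (SE 0.14) and not called, and the fit with the number as a block called none of the 9 genes and 0% of all probes there.

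Tissue composition differed between the same pieces. RV held more of the adipocyte markers, with 3 of 4 called higher than in LV, and their mean centred level (the level minus each gene's own mean over the arrays) ran from 1.12 to 1.67 on RV arrays, from -2.09 to -1.36 on LV arrays and from -0.65 to 0.58 on septum arrays. Mesothelial markers ran from 0.52 to 1.95 in RV, from -0.49 to 0.22 in LV and from -3.20 to -0.71 in septum, and 0 of 5 were called between RV and LV and 4 of 5 between RV and septum. Fibroblast markers had 3 of 6 called higher in RV than in LV, and ran from -0.08 to 0.74 in RV and from -0.57 to -0.27 in LV. Macrophage markers had 0 of 7 called, with all 7 differences above 0, and ran from 0.11 to 0.35 in RV and from -0.39 to 0.13 in LV. Cardiomyocyte markers ran from -0.07 to 0.02 in RV and from -0.03 to 0.15 in LV, with 0 of 7 called, and endothelial markers from -0.17 to 0.15 and from -0.12 to 0.30, with 0 of 6 called. These counts are from the fit without a block, where 3.86% of all probes were called between RV and LV and 2.08% between RV and septum. More markers were called in the blocked fits, where 17.6% (slide) and 14.9% (number) of all probes were called between RV and LV. Higher in RV than in LV were 4 and 3 of 5 mesothelial, 5 and 3 of 6 fibroblast, 2 and 4 of 7 macrophage and 3 and 3 of 4 adipocyte markers, with the slide and with the number as a block. Lower in RV were 2 of 7 cardiomyocyte markers in both fits, with all 7 differences below 0. Endothelial markers were split, with 2 higher and 2 lower of 6 with the slide and 1 higher and 2 lower with the number as a block, and so were the 4 monocyte markers, with 1 higher and 1 lower and with 0 higher and 1 lower. The part of these markers in the differences of the 9 genes was not tested, and fewer cells of a type and less RNA per cell cannot be told apart in whole tissue.

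**Figure D3:**
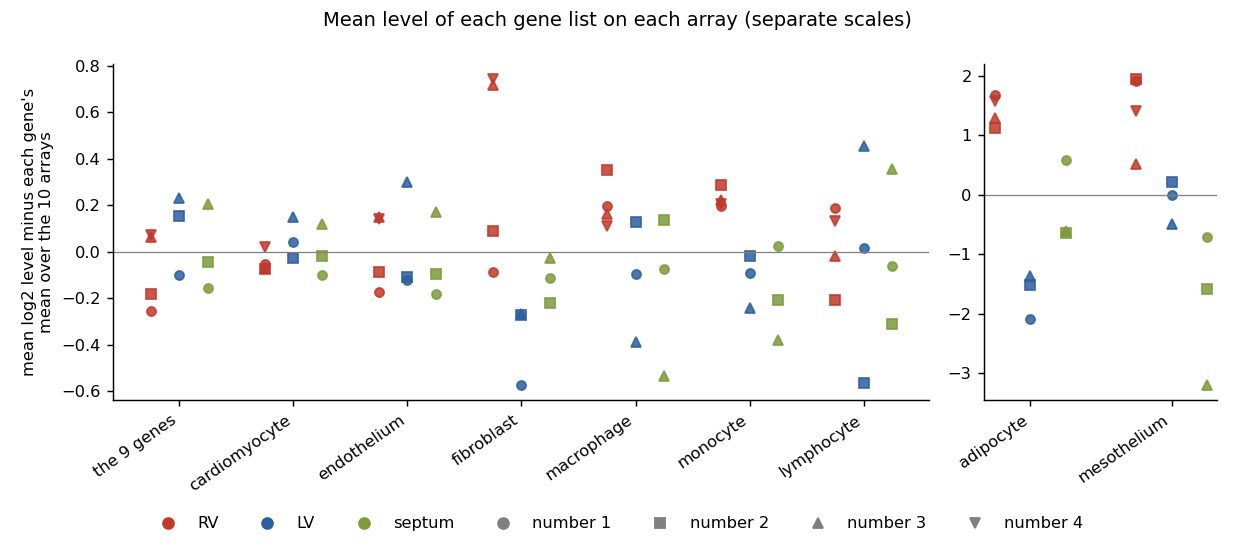
Mean level of the 9 genes and of marker lists on each array, each gene centred on its own mean over the 10 arrays (log2), by region (colour) and array number (symbol); adipocyte and mesothelium have their own scale. The 9 genes spanned -0.25 to 0.23, while adipocyte markers separated RV from LV by more than 2 log2 units.

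The second question was how arrays with the same number compared. Numbers 1 to 3 were contrasted over the 9 arrays that carry them, with region as a term. Number 2 against number 1 lies within slide 1, while both contrasts with number 3 also compare slide 2 with slide 1, so number 3 and slide cannot be told apart. Between numbers 2 and 1 none of the 9 genes was called, and 0.00331% of all probes were, though Isg15 and Rsad2 had an unadjusted p below 0.05. Isg15 differed there by 0.27 (SE 0.08, adjusted p = 0.27) and Rsad2 by 0.35 (SE 0.10, adjusted p = 0.29). The dimmer Rsad2 probe differed by 0.55 (SE 0.06, adjusted p = 0.11).

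Between numbers 3 and 1, 4 of the 9 genes were called, all higher in number 3. They were Ifi44 by 0.92 (SE 0.07, adjusted p = 0.0023), Rsad2 by 0.84 (SE 0.10, adjusted p = 0.0039), Ifit2 by 0.49 (SE 0.08, adjusted p = 0.0077) and Isg15 by 0.42 (SE 0.08, adjusted p = 0.0099). The arrays of these 4 genes did not overlap between numbers 3 and 1, as for 17.1% of all probes with number 3 wholly above. Of all probes 35.2% were called in this contrast and 15.2% were called higher. Usp18 and Irf7 had differences of 0.16 (SE 0.06, adjusted p = 0.082) and 0.27 (SE 0.10, adjusted p = 0.074). Ifit1 and Ifit3 showed 0.16 (SE 0.15, adjusted p = 0.43) and 0.01 (SE 0.08, adjusted p = 0.95). Oasl2 was the one member with a difference below 0, at -0.22 (SE 0.11, adjusted p = 0.15).

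**Figure D4:**
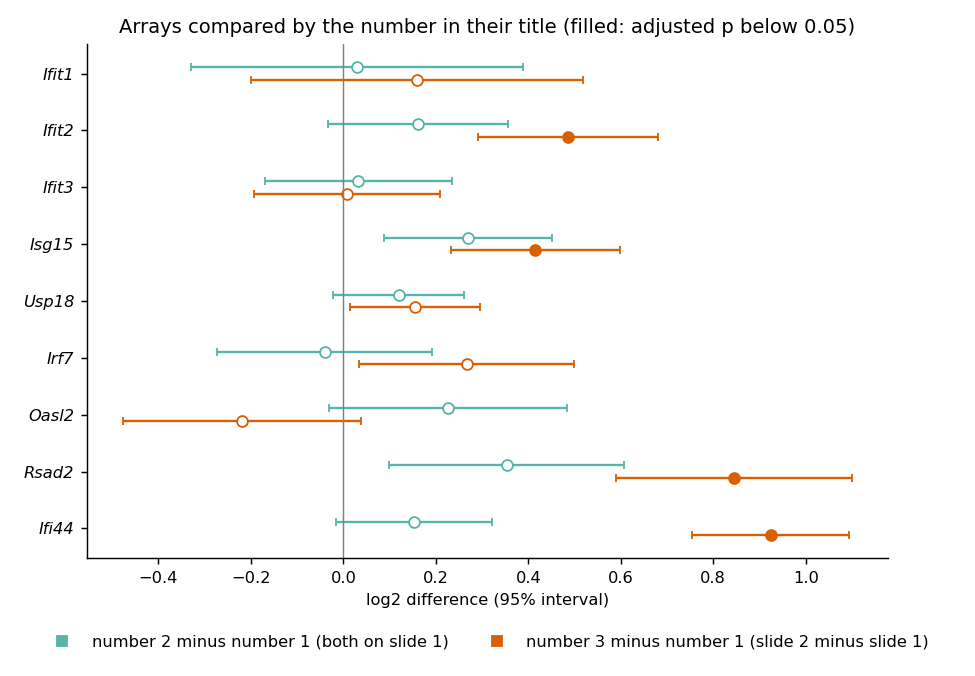
Log2 difference between arrays by the number in their title, with its 95% interval, for number 2 minus number 1 (green, both on slide 1) and number 3 minus number 1 (orange, on different slides); filled points have an adjusted p below 0.05. Ifi44 and Rsad2 differ by 0.92 and 0.84 between numbers 3 and 1, and Ifit3 by 0.01.

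Number 3 against number 2 gave 4 calls, with Ifi44, Rsad2 and Ifit2 higher and Oasl2 lower in number 3. Over the array 29.5% of probes were called and 13.3% called higher, and the joint test of the numbers called 32.3% of all probes and 5 of the 9 genes (Ifit2, Isg15, Oasl2, Rsad2 and Ifi44). Oasl2 fell by 0.45 (SE 0.11, adjusted p = 0.026) from number 2 to number 3. Ifi44 was higher by 0.77 (SE 0.07, adjusted p = 0.0032), Rsad2 by 0.49 (SE 0.10, adjusted p = 0.019) and Ifit2 by 0.32 (SE 0.08, adjusted p = 0.029). Scaling by the median of each array moved every difference between numbers 3 and 2 by 0.18 and those between 3 and 1 by 0.11, and with it, between numbers 3 and 2, Oasl2 lost its call (-0.27, adjusted p = 0.086) and Isg15, Irf7 and Usp18 gained one. Ifi44 was the single member called between numbers 3 and 2 without RV array 2, without septum array 2 or without LV array 3, and without septum array 3 Oasl2 was called beside it.

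Marker lists held calls between the numbers as well. Between numbers 3 and 1, 3 of 6 endothelial, 3 of 6 fibroblast and 2 of 7 cardiomyocyte markers were called higher. Called lower were 2 of 7 macrophage and 4 of 5 mesothelial markers. Over the array 35.2% of probes were called in this contrast, with 15.2% called higher and 6045 of 30234 called lower. Of 3 neutrophil and of 3 plasmacytoid dendritic cell markers 2 were called higher and 1 lower in each list, and of 4 lymphocyte markers 1 higher and 1 lower. No adipocyte, monocyte or erythroid marker was called there. Their part in the higher level of Ifi44, Rsad2, Ifit2 and Isg15 was not tested.

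Across the 10 arrays the 9 genes did not move as 1 block. The correlation of each gene with the mean of the other 8 was 0.95 for Ifit2 and Isg15, 0.93 for Rsad2, 0.82 for Ifi44, 0.71 for Irf7, 0.68 for Usp18 and 0.59 for Ifit1. It was -0.20 for Ifit3 and -0.60 for Oasl2. The arrays share regions and slides, so these are descriptions over 10 arrays that are not independent of each other. Of the 36 pairs of members, 22 had a correlation above 0, and the range was -0.63 to 0.93. After region and slide means were taken out, the correlation with the other members was 0.94 for Isg15, 0.76 for Ifit2, 0.75 for Rsad2, 0.58 for Ifi44, 0.51 for Usp18 and Ifit3 and 0.46 for Oasl2, against 0.19 for Ifit1 and -0.15 for Irf7. Before those means were taken out, genes with and without an ISRE core in the window stood on both sides. Isg15 and Rsad2 with a core and Ifit2 and Ifi44 without one lay between 0.82 and 0.95. Ifit1 and Ifit3 with a core and Irf7 and Oasl2 without one lay between -0.60 and 0.71. After they were taken out this split did not hold, with Ifit3 (0.51) and Oasl2 (0.46) near Ifi44 (0.58) and Irf7 lowest.

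Many other genes followed the mean of the 9. Among 13636 genes outside the set and well above background on all arrays, 521 had a Pearson correlation above 0.9 with it over the 10 arrays. The 10 highest were Gspt1, Clptm1l, Mapre3, Spata2, Ubr4, Traf7, Nacc1, Mypn, Rcsd1 and Siah1a, with correlations between 0.98 and 0.99. None of them was on the interferon lists. All 10 were called higher in number 3 than in number 1, where 15.2% of all probes were called higher. Between RV and LV none of these 10 was called in the fit without a block, where 3.86% of all probes were. Gspt1, a translation termination factor, ran from 2.65 on RV array 1 to 3.25 on septum array 3, and Mypn, a sarcomere protein, from 2.36 on RV array 1 to 3.50 on LV array 3.

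The other genes of the pathway were taken from lists of 97 genes, of which 90 were on the array and 80 passed the filter. Between RV and LV 1 rose in RV and 1 fell, against 3.86% called over the array, and the median difference of the 80 was -0.06, against -0.04 over all probes. Between RV and septum the same pair of genes was called, and between septum and LV none, with 0% called over the array and 22 of 80 differences above 0. With the slide as a block 3 of the 80 were higher and 3 lower in RV than in LV, a smaller share than the 17.6% called over the array.

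The pair called by region was Gbp6 and Irf5. Gbp6, a guanylate-binding protein induced by interferon gamma, stood at -0.77, -0.33, -0.61 and 0.01 on RV arrays 1 to 4, at 0.58, 1.16 and 1.15 on LV arrays 1 to 3 and at 0.61, 1.34 and 1.22 on septum arrays 1 to 3. RV lay below both other regions with no overlap, by -1.39 (SE 0.24, adjusted p = 0.017) against LV and by -1.48 (SE 0.24, adjusted p = 0.019) against septum. Irf5, a regulatory factor of macrophages and other immune cells, had RV arrays at a mean of -0.67 ± 0.14 (SD, n = 4), with LV lower at -1.25 ± 0.11 (SD, n = 3) and the septum at -1.29 ± 0.09 (SD, n = 3). It was higher in RV by 0.58 (SE 0.10, adjusted p = 0.016) than in LV and by 0.62 (SE 0.10, adjusted p = 0.017) than in septum.

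Interferon genes themselves were at the limit of the assay. Ifnb1, Ifng, Ifna4 and Ifnk were well above background on no array and Ifna2 on 4. Ifna1, on 7 arrays, and Ifnl3, on all 10, passed the filter, and neither was called between regions. Between RV and LV they differed by 0.40 (SE 0.19, adjusted p = 0.30) and -0.27 (SE 0.20, adjusted p = 0.50). Both were lower in number 3 than in number 1, by 0.50 (SE 0.12, adjusted p = 0.021) and 0.51 (SE 0.08, adjusted p = 0.0061). In that contrast 35.2% of all probes were called, and 6045 of 30234 were called lower.

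All 12 receptor and JAK-STAT genes were well above background on every array. None was called between regions, where at most 3.86% of all probes were called. The receptor chains Ifnar1 and Ifnar2 differed between RV and LV by 0.05 (SE 0.08) and -0.04 (SE 0.10). Stat2 differed by -0.15 (SE 0.14) and Irf9, its partner, by -0.13 (SE 0.08). In the contrast of numbers 3 and 1, 4 of the 12 rose and 1 fell, against 35.2% of all probes called and 15.2% called higher. Socs3 and Socs1, feedback inhibitors of cytokine receptors, were among those that rose, by 0.98 (SE 0.25, adjusted p = 0.029) and 0.54 (SE 0.08, adjusted p = 0.0062), as was Stat2, by 0.31 (SE 0.09, adjusted p = 0.036). Ifnar2 fell by 0.21 (SE 0.05, adjusted p = 0.025).

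Other interferon-stimulated effectors had 27 genes tested and none called between regions, where at most 3.86% of all probes were called. The median difference of these 27 genes between RV and LV was -0.10. With the slide as a block 2 were higher and 2 lower in RV than in LV, against 17.6% called over the array, so the count does not set the list apart. Ifi27l2a, an interferon-induced mitochondrial protein family member, was higher by 0.84 (SE 0.18, adjusted p = 0.018) and Ifi27 by 0.25 (SE 0.07, adjusted p = 0.037), while Oas2, which makes the activator of RNase L, was lower by -0.49 (SE 0.10, adjusted p = 0.015) and Dtx3l, a ubiquitin ligase, by -0.22 (SE 0.05, adjusted p = 0.025). Between numbers 3 and 1, 6 of the 27 rose and 6 fell, against 35.2% called over the array. Bst2, which tethers budding viruses to the cell, rose by 0.53 (SE 0.07, adjusted p = 0.0047) and Oas2 by 0.53 (SE 0.07, adjusted p = 0.0050). Oas1g fell by 0.70 (SE 0.09, adjusted p = 0.0039), Zbp1, a nucleic acid sensor, by 0.68 (SE 0.09, adjusted p = 0.0047) and Ifitm1, a membrane protein that blocks viral entry, by 0.49 (SE 0.06, adjusted p = 0.0043).

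**Figure D5:**
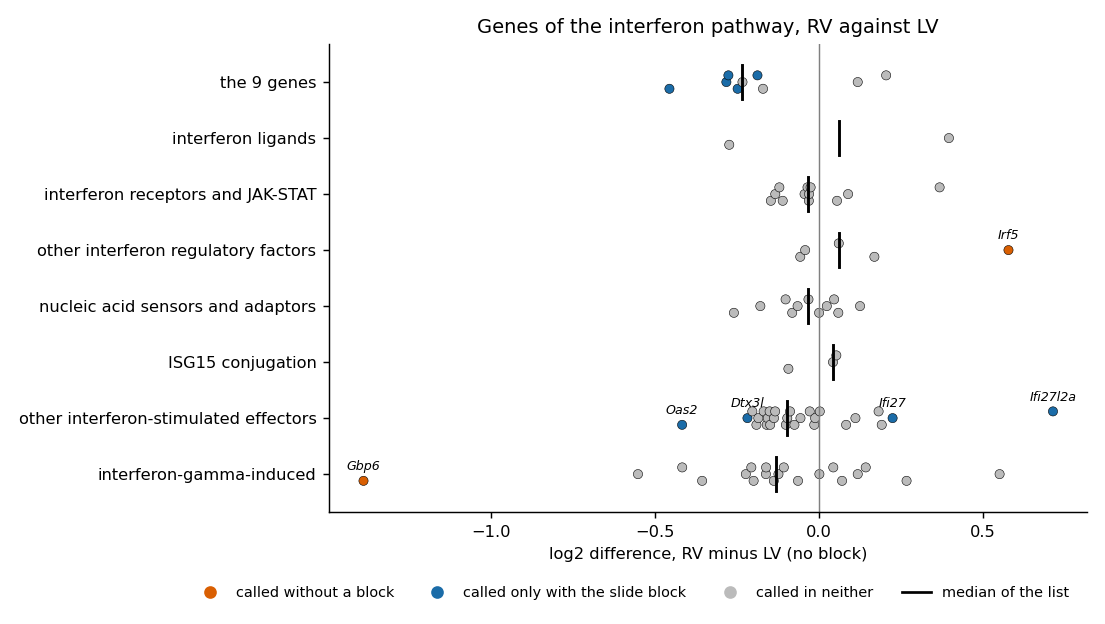
Log2 difference between RV and LV, in the fit without a block, for the 9 genes and for the tested genes of 7 pathway lists, 1 point per gene with the median of each list as a bar. Orange points were called without a block, blue points with the slide as a block and not without it, and grey points in neither. Gbp6 and Irf5 lie at -1.39 and 0.58.

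The remaining lists were read between RV and LV in the fit without a block, where 3.86% of all probes were called. None of 11 nucleic acid sensors and adaptors and none of 3 genes of ISG15 conjugation was called between RV and LV. Of 20 interferon-gamma-induced genes 1 was called there (Gbp6), and the median of the list was -0.13. Of 5 other interferon regulatory factors 1 was called (Irf5), with a median of 0.06. Between numbers 3 and 1, where 35.2% of all probes were called and 15.2% called higher, the counts higher and lower were 2 and 0 for the sensors and adaptors, 1 and 0 for ISG15 conjugation, 4 and 1 for the interferon-gamma-induced genes and 3 and 0 for the regulatory factors.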

How the data were processed

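RNA from RV, LV and septum pieces of C57BL/6N mouse hearts was labelled with Cy3 and hybridised to 1-colour Agilent mouse arrays, 1 sample per array. The authors made the deposited intensity values with Agilent Feature Extraction (version 11.5.1.1), which corrected the background and flagged spots. They also deposited a table of log2 values, which lay within 0.05 of the values used here on every array. The values used here were the log2 processed signals without control spots and without flagged outliers (between 56 and 128 an array). They were taken as a mean over the spots of a probe, less the array's 75th percentile. The tests took in 30234 of 56605 probes, those that no array of at least 1 region failed to show well above background. The signals of RV array 1 had been saved with fewer digits. Probes were named through their RefSeq accession (assembly GRCm38.p6; 58.3% of probes), and the brightest probe stood for a gene. No array coordinates are given, since the array files use another build.

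Two-sided limma tests (limma 3.58.1 under R 4.3.3) compared regions and numbers, region on all 10 arrays and number on 9 with region as a term. Adjusted p-values are Benjamini-Hochberg values over all probes tested, and below 0.05 was a call. The methods' analysis of variance with Tukey's correction was an alternative, as were other scalings, normexp with an offset of 50 (on the median spot signal, the one at hand, in place of the mean signal), filters, blocks, the mean of a gene's probes and leaving out single arrays. Over 30175 probes the deviations of same-numbered arrays from their region means correlated by 0.36 to 0.64 in all 9 pairs, so blocked values are given beside the others. The pairing comes from these values and the titles, and number 3 is also slide 2. The region fit without a block and the number fit were tested on simulated data in which the arrays varied independently. The fits with a block were not tested in this way.

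The 9 genes and all lists were chosen with earlier results of these data known. Named beside the 9 genes are pathway genes that passed a test (at most the 8 with the smallest adjusted p per comparison, not all of them given here), the ligand, receptor and JAK-STAT genes and the 10 genes most correlated with the mean of the 9. Ifi27, Ifi27l2a, Oas2 and Dtx3l in the fit with the slide as a block were named after their values were seen. Lists for monocytes, lymphocytes, plasmacytoid dendritic cells, neutrophils and erythroid cells were also read, and none of their markers was called between regions without a block. With a block the monocyte markers alone among these lists had calls. A pathway gene the rule would name is not reported here.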

Additional observations from a re-analysis of the deposited data

Results flagged for a closer look

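The brighter probe of Irf7 stood apart on 1 of the 4 RV arrays. RV array 2, at 2.32, lay below the other 3 RV arrays, at 2.54 to 2.56, with a gap that took 0.926 of the whole range of the region. Irf7 was the one of the 11 probes so marked, and chance marks about 1 in 20 such groups. The second Irf7 probe did not set this array apart, with a gap of 0.510 of the range.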

How the results depend on the processing

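Of 1197 values for single genes under 27 alternative settings, 1149 kept their direction or their side of the threshold, 22 lost a call, 26 gained one and none reversed a call. Another 45 changed sign, all called neither before nor after and counted among those kept. The replicate block, with the number pairing the arrays, gave 4 members called between RV and LV, 1 between RV and septum and 2 over the 3 regions, against 0 in each without a block. The slide as a block gave 5, 1 and 1, and the number as a random block 2, 2 and 1. The methods' analysis of variance called 1 member between RV and LV and 1 over the 3 regions unadjusted, and none after Benjamini-Hochberg adjustment. With no filter the calls between numbers 3 and 2 went from 4 to 1 and those over the numbers from 5 to 2, and with no region term both went to 1. Leaving out 1 array gave 1 to 5 calls between numbers 3 and 2 and 2 to 6 over the numbers, the lowest of the latter without LV array 1 or septum array 3. For RV against LV with the slide as a block, scaling by probes well above background on all arrays gave 3 calls, no filter 0 and leaving out 1 array 0 to 4. With the replicate block the same gave 2, 0 and 0 to 4. Scaling by the median raised the count to 6 with either block. Over all probes it called 6182 (slide) and 6282 (replicate) of 30234, against 5331 and 4512 in the main fits. The other scalings and filters gave 4 or 5 members with either block. These settings were all chosen after seeing the data. The cause of these changes was not tested. The 9 genes were well above background on every array, while most interferon genes were not.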
